A study of Mus musculus with 6 samples.

Results

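The genes described here encode the vacuolar proton pump (V-ATPase), the lysosomal proteases called cathepsins, and a set of lysosomal membrane and regulator proteins, measured by RNA-seq in mouse embryonic fibroblasts. They were chosen by gene symbol alone: symbols that begin with Atp6v or Atp6ap, symbols made of Cts and 1 further letter, and Lamp1, Lamp2, Cd63, Cd68, Scarb2, Npc1, Npc2, Mcoln1 and Tfeb. The rule found 53 of the 54532 genes in the deposited table, and the 36 with a mean of at least 1 FPKM (reads scaled by gene length and by library size) over the 6 libraries are described. Of these, 17 belong to the V-ATPase, 10 are cathepsins and 9 are membrane or regulator genes. The groups were shMettl3_dox, 3 libraries with a short hairpin RNA against Mettl3, and shLuc_dox, 3 libraries with the control hairpin shLuc. Deposited headers give all 3 shMettl3_dox libraries the same numbered hairpin name. Other effects of that hairpin and those of losing Mettl3 cannot be told apart. All 6 came from fibroblasts that express the E1A and HRasV12 oncogenes, and all were given doxorubicin, a DNA-damaging drug, at 0.2 ug/ml for 6 hours, so no untreated cells enter any comparison. The study asked which genes are lower after Mettl3 knockdown during DNA damage. The labels do not say whether the replicates were separate cultures, so any p-value reflects the spread among these libraries alone, which may be technical.

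The V-ATPase pumps protons into lysosomes and endosomes. Its soluble V1 sector hydrolyses ATP, and its membrane V0 sector carries the protons. The acid it makes activates most cathepsins, which cut proteins delivered by endocytosis and autophagy, while heavily glycosylated membrane proteins such as LAMP1 line the lysosome. Many of these genes are bound by TFEB and related factors at E-box sequences in their promoters. METTL3 is the catalytic subunit of the enzyme that places N6-methyladenosine on messenger RNA.

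Mettl3 itself was measured at 1.29, 1.53 and 1.65 FPKM in the shMettl3_dox libraries and at 2.47, 3.14 and 2.59 FPKM in the shLuc_dox libraries, a log2 change of -0.58 (adjusted p = 0.00861, limma). Recovered depth was 17649303 to 25458607 reads in shMettl3_dox and 16997674 to 20127973 reads in shLuc_dox. Replicate 3 of shMettl3_dox stood apart: the chi-square of its recovered reads against the other 2 libraries of its group was 13.0 and 14.9 per degree of freedom, against 3.53 to 4.88 for the other pairs within a group. In it, the most abundant gene, Gm23935, held 2.57% of all FPKM, against 5.21% and 7.13% in the other shMettl3_dox libraries and 6.31% to 7.70% in shLuc_dox. Of the markers used to check the cell type, Vim averaged 761 FPKM, but 8 of 11 fibroblast markers lay under 1 FPKM, with Col1a1 at 0.735 and Thy1 at 0.00582 FPKM over the 6 libraries. The fibroblast markers summed to 687 to 751 FPKM in shMettl3_dox and 806 to 856 FPKM in shLuc_dox, and 2 of the 3 tested ones, Vim (log2 change -0.22) and Pdgfra (-0.45), were lower in shMettl3_dox. The epithelial markers summed to 29.3 to 35.8 FPKM in shMettl3_dox and 49.2 to 52.8 FPKM in shLuc_dox, and the 2 tested ones, Krt18 and Epcam, were both lower in shMettl3_dox. Without replicate 1 of shLuc_dox the calls of Vim, Pdgfra and Epcam were lost (adjusted p = 0.0741, 0.0667 and 0.0635, limma). The part of these markers in the results on lysosomal genes was not tested. In bulk RNA, fewer cells of a type and less RNA per cell cannot be told apart.

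Between shMettl3_dox and shLuc_dox, 7 of the 36 genes fell and 3 rose (limma on log2(FPKM + 1), adjusted p under 0.05). The fallen genes were Ctsf, Cd68, Atp6v0e2, Atp6v1a, Ctsd, Atp6v0a1 and Ctsa, and the risen ones were Ctsl, Lamp1 and Ctsc. Thus 19.4% of the 36 fell and 8.33% rose, against 13.5% and 14.6% of all 12098 genes tested. The median log2 change of the 36 was -0.10 and that of all tested genes was 0.01. Library ranges of the 2 groups did not overlap for 25 of the 36 genes, or 69.4%, against 45.1% of all tested genes. The 36 together summed to 1117 to 1160 FPKM in shMettl3_dox and 1141 to 1156 FPKM in shLuc_dox, so the ranges of the sum overlapped. Without replicate 3 of shMettl3_dox, 8 fell and 6 rose. The count of risen genes was 1 without replicate 1 or 2 of shLuc_dox, while the count of fallen genes stayed at 7 or 8 when any 1 library was left out. With every library rescaled to its protein-coding total, 13 fell and 2 rose among the 36, and over all tested genes 1922 fell and 1264 rose, against 1633 and 1763 in the values as deposited. The authors' deposited table of lower genes lists 9 of the 36, against 13.8% of all tested genes; these are the 7 fallen genes with Scarb2 and Npc2.

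**Figure D1:**
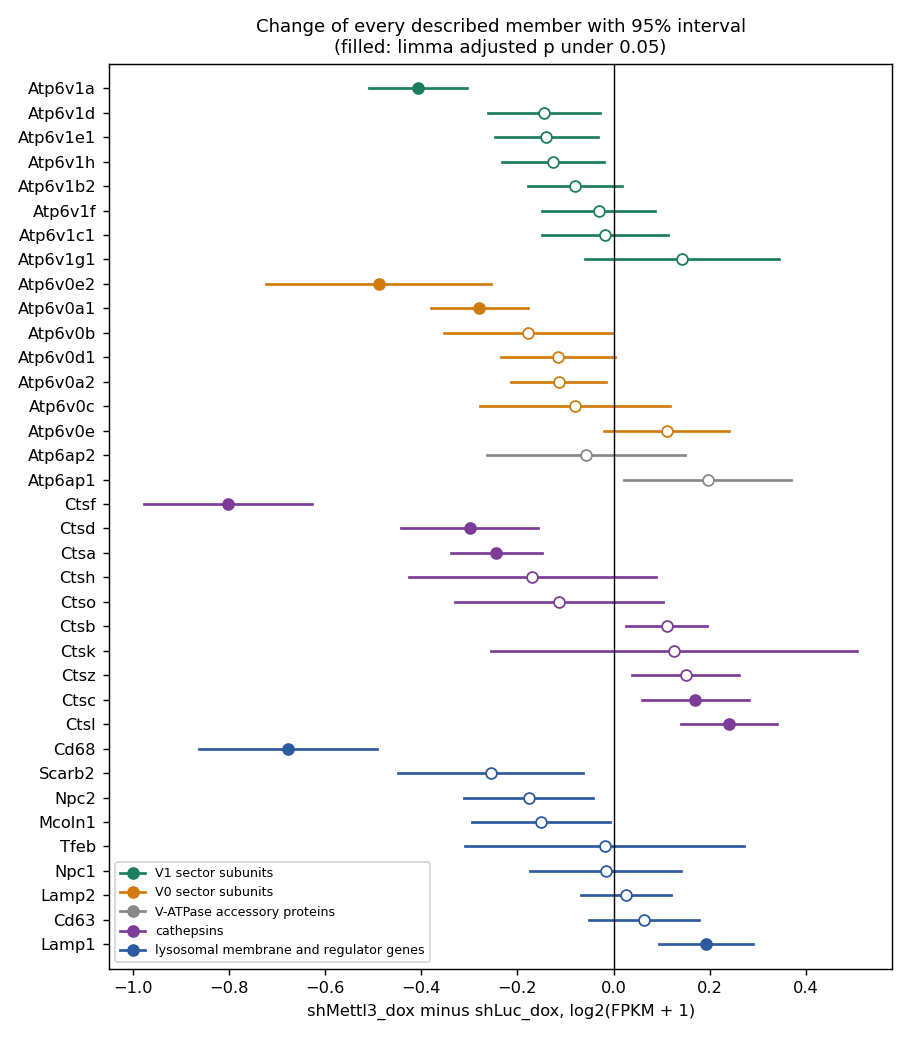
Change of each of the 36 genes, as shMettl3_dox minus shLuc_dox on the log2(FPKM + 1) scale (horizontal axis), grouped by role. Points are limma estimates with 95% intervals, filled where the adjusted p is under 0.05: 7 filled points lie left of 0, the lowest being Ctsf at -0.80, and 3 lie right of it, the highest being Ctsl at 0.24.

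Because E-boxes are the sequences through which TFEB-type factors are known to act on this gene set, the promoters that carry one are shown for the genes that changed. RefSeq promoter windows (GRCm38.p6, 250 bases before to 50 bases after each annotated start, 300 bases in all) were found for 28 of the 36 genes, with 33 windows. The windows are written 5′ to 3′ on the strand of the gene, in lower case, with each CACGTG (the E-box, its own reverse complement, so a match on 1 strand is a match on both) in capitals.
Lamp1, chr8:13158911-13159210, + strand: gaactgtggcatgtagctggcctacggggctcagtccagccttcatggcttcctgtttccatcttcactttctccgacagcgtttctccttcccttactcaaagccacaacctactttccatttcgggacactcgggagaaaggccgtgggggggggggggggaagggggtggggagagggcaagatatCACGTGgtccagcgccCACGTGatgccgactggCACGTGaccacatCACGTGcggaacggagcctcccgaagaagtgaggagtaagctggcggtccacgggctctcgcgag
Ctsd, chr7:142387778-142388077, - strand: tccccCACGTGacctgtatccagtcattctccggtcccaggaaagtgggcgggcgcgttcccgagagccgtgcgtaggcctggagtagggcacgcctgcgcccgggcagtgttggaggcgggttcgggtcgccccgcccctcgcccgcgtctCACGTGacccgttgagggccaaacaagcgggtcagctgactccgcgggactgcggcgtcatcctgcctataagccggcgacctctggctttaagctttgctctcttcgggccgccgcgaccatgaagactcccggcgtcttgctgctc
Ctsa, inner annotated start, chr2:164833523-164833822, + strand: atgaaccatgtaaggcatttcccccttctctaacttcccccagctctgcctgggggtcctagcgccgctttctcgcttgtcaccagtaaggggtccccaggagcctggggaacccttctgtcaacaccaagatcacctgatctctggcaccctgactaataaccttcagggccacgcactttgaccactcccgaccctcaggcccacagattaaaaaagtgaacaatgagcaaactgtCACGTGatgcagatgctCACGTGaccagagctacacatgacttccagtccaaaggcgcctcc
Atp6v1a, chr16:44139210-44139509, - strand: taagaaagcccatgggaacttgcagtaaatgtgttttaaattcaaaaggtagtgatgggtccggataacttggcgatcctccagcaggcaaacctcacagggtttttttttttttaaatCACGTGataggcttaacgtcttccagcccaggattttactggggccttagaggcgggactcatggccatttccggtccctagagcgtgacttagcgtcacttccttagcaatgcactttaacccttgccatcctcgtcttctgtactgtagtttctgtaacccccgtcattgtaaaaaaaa
Ctsf, chr19:4854915-4855214, + strand: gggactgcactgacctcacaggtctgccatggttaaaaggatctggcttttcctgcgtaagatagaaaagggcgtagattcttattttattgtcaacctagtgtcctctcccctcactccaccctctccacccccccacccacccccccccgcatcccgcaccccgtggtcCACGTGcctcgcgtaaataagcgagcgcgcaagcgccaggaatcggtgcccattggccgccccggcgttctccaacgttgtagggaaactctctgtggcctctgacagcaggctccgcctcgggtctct
Ctsl, chr13:64370471-64370770, - strand: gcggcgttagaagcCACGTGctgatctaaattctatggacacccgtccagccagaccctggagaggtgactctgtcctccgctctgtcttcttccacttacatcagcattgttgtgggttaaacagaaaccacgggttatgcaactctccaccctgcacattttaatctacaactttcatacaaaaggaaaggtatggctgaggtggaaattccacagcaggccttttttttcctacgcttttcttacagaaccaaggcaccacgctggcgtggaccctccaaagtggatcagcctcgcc
Lamp1 held 4 E-boxes in a row, which begin at positions -61, -45, -28 and -15 from its start, the most of the 33 windows. Ctsd held 2, at -245 and -98, and the inner window of Ctsa held 2, at -12 and 6. Atp6v1a, Ctsf and Ctsl held 1 each, at -131, -79 and -236. The windows of the other changed genes, Cd68, Atp6v0e2, Atp6v0a1 and Ctsc, held none, nor did the outer window of Ctsa. Like the inner window of Ctsa, those of Atp6v0a1, Atp6v1a and Ctsl lie wholly within the gene as annotated in GENCODE M21. For Atp6v0a1 the gene starts at 101009452 and the window at 101010148. The outermost annotated starts of Atp6v0a1, Atp6v1a and Ctsl were therefore not searched.

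An E-box was found in 10 of the 33 windows, or 30.3%, against 10.3% of the 11122 windows of all tested genes and 7.15% of all 32851 windows. The other windows with one belonged to Atp6v0b, Atp6v0d1, Atp6v0e and Mcoln1, none of which passed the test. The longer TCACGTG, searched on both strands and always part of an E-box, was in 24.2% of the 33 windows and 6.24% of those of tested genes. Windows with an E-box belonged to genes that fell (Ctsf, Atp6v1a, Ctsd and Ctsa), to genes that rose (Lamp1 and Ctsl) and to genes that did not pass the test. A match is a description of the letters, not a measured binding site.

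Among the 8 V1 subunits, 1 fell and 0 rose with limma, against 13.5% and 14.6% of all tested genes. At an unadjusted p under 0.05, 4 fell and 0 rose, where 18.7% and 21.4% of all tested genes did. With edgeR on recovered reads 3 fell and 0 rose (16.3% and 16.9% of all tested genes), and with DESeq2 2 fell and 0 rose (16.5% and 15.6%). The V1 subunit that fell was Atp6v1a, which encodes the catalytic A subunit where ATP is hydrolysed. It had 27.6, 25.8 and 26.7 FPKM in shMettl3_dox and 35.5, 35.0 and 36.8 FPKM in shLuc_dox. All 3 shMettl3_dox libraries lay below all 3 shLuc_dox libraries, with little spread in either group. The means were 26.7 ± 0.927 FPKM in shMettl3_dox and 35.7 ± 0.904 FPKM in shLuc_dox (SD, n = 3 each), a ratio of 0.748 and a log2 change of -0.41 (SE 0.0429, adjusted p = 0.00109, limma; 0.00246 to 0.00769 with 1 library left out). Atp6v1b2, the B subunit that alternates with A in the V1 head, averaged 17.5 ± 0.364 FPKM in shMettl3_dox and 18.5 ± 0.510 FPKM in shLuc_dox and did not pass the test (log2 change -0.08, adjusted p = 0.194). Within a library, Atp6v1a over Atp6v1b2 was 1.62, 1.45 and 1.53 in shMettl3_dox and 1.95, 1.92 and 1.92 in shLuc_dox; the ranges did not overlap, and since the pair was chosen after its values were seen, the ratio was not tested.

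The remaining V1 subunits form the stalks of the pump and its regulatory H subunit. Atp6v1d, Atp6v1e1 and Atp6v1h had log2 changes of -0.14, -0.14 and -0.13, with adjusted p of 0.0695, 0.0607 and 0.0778 (limma), and all 3 had library ranges that did not overlap. Atp6v1e1 averaged 25.02 ± 0.742 FPKM in shMettl3_dox and 27.7 ± 1.10 FPKM in shLuc_dox, and edgeR on recovered reads called it lower (adjusted p = 0.0413), as it did Atp6v1h (0.0489). Atp6v1c1 and Atp6v1f had log2 changes of -0.02 and -0.03. Atp6v1g1, a peripheral stalk subunit, was at 80.9, 80.5 and 65.0 FPKM in shMettl3_dox and 70.0, 67.3 and 66.7 FPKM in shLuc_dox. Replicate 3 of shMettl3_dox lay below every shLuc_dox library and the other 2 above them, so the groups overlapped (log2 change 0.14, adjusted p = 0.263), and without that replicate the adjusted p was 0.00561.

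Of the 7 V0 subunits, 2 fell and 0 rose with limma, against 13.5% and 14.6% of all tested genes. The counts were the same with edgeR (16.3% and 16.9% of all tested genes) and with DESeq2 (16.5% and 15.6%). At an unadjusted p under 0.05 in limma, 4 fell and 0 rose (18.7% and 21.4%). Atp6v0e2, a small membrane subunit, had 8.68, 9.17 and 7.81 FPKM in shMettl3_dox and 13.7, 10.6 and 13.1 FPKM in shLuc_dox. The groups did not overlap, though replicate 2 of shLuc_dox lay nearer to the shMettl3_dox libraries than the other 2 did. The log2 change was -0.49 (SE 0.0992, adjusted p = 0.0122, limma), with means of 8.55 ± 0.687 FPKM in shMettl3_dox and 12.5 ± 1.62 FPKM in shLuc_dox (SD, n = 3 each). Its paralog Atp6v0e did not pass the test, at 21.6 ± 1.40 FPKM in shMettl3_dox and 19.9 ± 0.583 FPKM in shLuc_dox (log2 change 0.11, adjusted p = 0.186). Within a library, Atp6v0e2 over Atp6v0e was 0.428, 0.397 and 0.364 in shMettl3_dox and 0.664, 0.544 and 0.665 in shLuc_dox, without overlap.

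Atp6v0a1 encodes an isoform of the large a subunit, which forms the proton path with the c ring. It had 8.46, 8.48 and 8.75 FPKM in shMettl3_dox and 10.5, 10.5 and 10.8 FPKM in shLuc_dox. The 3 libraries of each group lay close together and the groups were clearly apart, with a log2 change of -0.28 (SE 0.0424, adjusted p = 0.00419, limma). Atp6v0a2, the isoform known from Golgi and endosomes, had a smaller log2 change of -0.11 (adjusted p = 0.0823), at 11.7 ± 0.191 FPKM in shMettl3_dox and 12.8 ± 0.288 FPKM in shLuc_dox. The ratio of Atp6v0a1 to Atp6v0a2 was 0.719, 0.711 and 0.758 in shMettl3_dox and 0.846, 0.810 and 0.831 in shLuc_dox. Atp6v0b and Atp6v0d1, a proteolipid and the subunit that joins V0 to the central stalk, had log2 changes of -0.18 and -0.12 and did not pass the test. Summed over the 7 subunits, V0 transcripts came to 104 to 109 FPKM in shMettl3_dox and 115 to 121 FPKM in shLuc_dox, while the V1 sums, 235 to 258 FPKM in shMettl3_dox and 256 to 263 FPKM in shLuc_dox, overlapped.

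**Figure D2:**
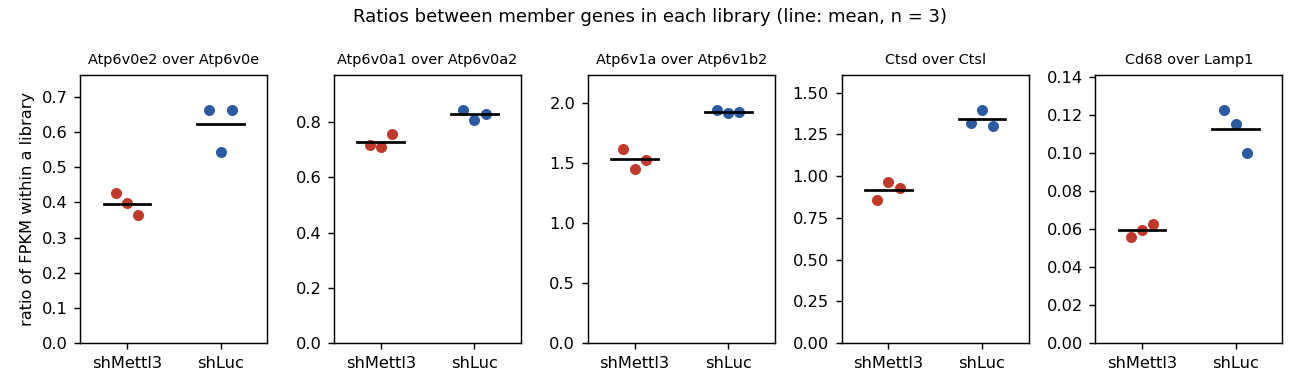
Ratio of the FPKM of 2 genes within each library (vertical axes, from 0), shMettl3_dox in red on the left and shLuc_dox in blue on the right, with the mean of 3 libraries as a line. All 5 pairs were chosen after their values were seen; in each, the 3 shMettl3_dox libraries lie below the 3 shLuc_dox libraries, as for Ctsd over Ctsl at 0.859 to 0.965 in shMettl3_dox and 1.30 to 1.40 in shLuc_dox.

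Atp6v0c encodes the proteolipid that forms most of the c ring, and it was the lowest of the 7 V0 subunits described, at 2.99 ± 0.269 FPKM in shMettl3_dox and 3.21 ± 0.254 FPKM in shLuc_dox. A processed pseudogene on chromosome 6, listed as Gm15487 (Atp6v0c-ps2 in GENCODE M21), is 99.8% identical to it over 465 bases and was listed at 137.7 ± 7.98 FPKM in shMettl3_dox and 156.9 ± 6.52 FPKM in shLuc_dox. Gm15487 itself passed the test as lower (log2 change -0.19, adjusted p = 0.0466, limma). That call was lost when any 1 library was left out (adjusted p 0.0578 to 0.151, limma). Reads counted to Atp6v0c were only 11.6% to 14.3% of the reads counted to both. The values of both genes are therefore uncertain, because reads from 1 may have been counted to the other. Pooled, both gave 77.0, 74.9 and 68.3 RPM (reads scaled to library depth) in shMettl3_dox and 83.5, 86.1 and 81.0 in shLuc_dox. All 3 pooled shMettl3_dox values lay below the shLuc_dox values, and the pooled log2 change of -0.17 (SE 0.0532) had an adjusted p of 0.0515 (limma), against -0.08 and 0.517 for Atp6v0c alone.

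**Figure D3:**
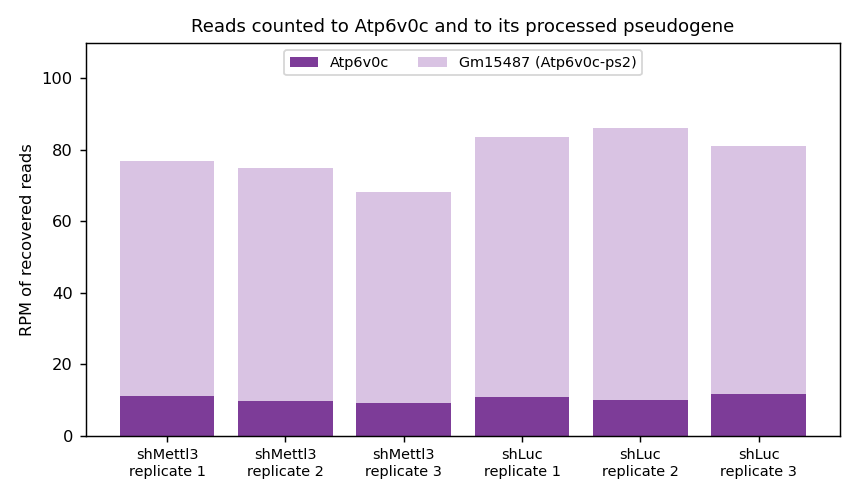
Recovered reads scaled to library depth (vertical axis, RPM, from 0) in each library, stacked for Atp6v0c (dark) and its processed pseudogene Gm15487 (light), with the 3 shMettl3_dox libraries left of the 3 shLuc_dox libraries. The stacks reach 68.3 to 77.0 in shMettl3_dox and 81.0 to 86.1 in shLuc_dox, and Atp6v0c is 11.6% to 14.3% of each.

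The 2 accessory proteins did not pass limma's test. Atp6ap1 (Ac45), which helps assemble and steer the pump, averaged 51.6 ± 4.10 FPKM in shMettl3_dox and 44.9 ± 3.20 FPKM in shLuc_dox (log2 change 0.20, adjusted p = 0.0917), and edgeR and DESeq2 on recovered reads called it higher, with adjusted p of 0.0327 and 0.0355. Atp6ap2, the prorenin receptor, had a log2 change of -0.06. Over all 17 V-ATPase genes, 3 fell and 0 rose with limma, against 13.5% and 14.6% of all tested genes. At an unadjusted p under 0.05, 8 fell and 1 rose (18.7% and 21.4% of all tested genes). With edgeR 5 fell and 1 rose (16.3% and 16.9%), and with DESeq2 4 fell and 1 rose (16.5% and 15.6%). With limma and without replicate 3 of shMettl3_dox, 1 rose, Atp6v1g1. Log2 changes were negative for 14 of the 17, with a median of -0.11. They were negative for 5705 of all 12098 tested genes, with a median of 0.01. Rescaled to protein-coding totals, 7 of the 17 fell.

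Of the 10 cathepsins, 3 fell and 2 rose, against 13.5% and 14.6% of all tested genes. For 9 of the 10 the library ranges of the groups did not overlap, against 45.1% of all tested genes. Log2 changes were negative for 5 and positive for 5, and for 5705 and 6393 of all 12098 tested genes. Ctsf, a papain-like cysteine protease, had the lowest ratio of the 36 genes. It was at 10.8, 10.6 and 8.89 FPKM in shMettl3_dox and at 18.4, 18.7 and 17.6 FPKM in shLuc_dox. Every shMettl3_dox library was well below every shLuc_dox library. Means were 10.1 ± 1.04 FPKM in shMettl3_dox and 18.3 ± 0.568 FPKM in shLuc_dox (SD, n = 3 each), a ratio of 0.552 and a log2 change of -0.80 (SE 0.0739, adjusted p = 0.000706, limma). It rested on 354 to 744 reads per library, and with 1 library left out the adjusted p was 0.000442 to 0.00588.

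Ctsd, the main aspartic protease of lysosomes, was at 69.8, 79.7 and 71.0 FPKM in shMettl3_dox and at 90.1, 94.1 and 87.4 FPKM in shLuc_dox. The groups did not overlap, and the highest shMettl3_dox library, replicate 2, stayed below the lowest of shLuc_dox. The log2 change was -0.30 (SE 0.0603, adjusted p = 0.0119, limma; up to 0.0494 with 1 library left out). Ctsa, a serine carboxypeptidase that also protects lysosomal β-galactosidase and neuraminidase, was at 26.9, 27.7 and 28.4 FPKM in shMettl3_dox and at 32.6, 32.5 and 33.8 FPKM in shLuc_dox. The groups were apart (log2 change -0.24, SE 0.0404, adjusted p = 0.00566, limma). Ctsa overlaps 2 genes on the opposite strand, Pltp by 1515 bases and Neurl2 by 584 bases. Pltp averaged 8.71 FPKM in shMettl3_dox and 34.4 FPKM in shLuc_dox, and Neurl2 2.73 FPKM in shMettl3_dox and 10.4 FPKM in shLuc_dox. The strand setting of the read counting is not stated in these sources, and the part of these neighbours in the fall of Ctsa was not tested.

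Ctsl, an abundant cysteine endopeptidase, was at 81.2, 82.6 and 76.3 FPKM in shMettl3_dox and at 68.2, 67.2 and 67.2 FPKM in shLuc_dox. All 3 shMettl3_dox libraries were above the shLuc_dox libraries, by a log2 change of 0.24 (SE 0.0421, adjusted p = 0.00704, limma). In FPKM, Ctsd was therefore below Ctsl in every shMettl3_dox library and above it in every shLuc_dox library. Ctsd over Ctsl was 0.859, 0.965 and 0.931 in shMettl3_dox and 1.32, 1.40 and 1.30 in shLuc_dox. The order of these genes depends on the length divisor, 2351 bases for Ctsd and 6489 bases for Ctsl. In recovered reads Ctsl was the higher in every library, at 7340 to 13283 against 3279 to 4450 for Ctsd. Ctsc, the dipeptidyl peptidase that activates serine proteases of immune cells, was at 7.81, 7.79 and 7.57 FPKM in shMettl3_dox and at 6.84, 6.54 and 6.88 FPKM in shLuc_dox. The groups did not overlap (log2 change 0.17, SE 0.0467, adjusted p = 0.0351, limma), but the call was lost without any 1 of the 5 other libraries (adjusted p 0.0719 to 0.116) and kept without replicate 3 of shMettl3_dox (0.0411). The 2 risen cathepsins were thus 1, Ctsl, when any of those 5 was left out, and 4 without replicate 3 of shMettl3_dox, where Ctsb (adjusted p = 0.0335) and Ctsz (0.0110) passed as well.

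The other 5 cathepsins did not pass the test. Ctsz, a carboxypeptidase, was at 92.0 ± 4.43 FPKM in shMettl3_dox and 82.8 ± 1.92 FPKM in shLuc_dox (adjusted p = 0.0531, limma), and edgeR on recovered reads called it higher (0.0476). Ctsb was at 59.1 ± 1.07 FPKM in shMettl3_dox and 54.7 ± 0.545 FPKM in shLuc_dox (adjusted p = 0.0575); 774 bases of it overlap Fdft1 on the opposite strand. Neither pair of groups overlapped, with log2 changes of 0.15 and 0.11. Ctsk, the collagen-cutting protease of osteoclasts, was between 4.27 and 4.42 FPKM in shMettl3_dox and spread over 2.83 to 5.19 FPKM in shLuc_dox. The low Ctsh and Ctso, at 1.18 and 1.57 FPKM on average, had log2 changes of -0.17 and -0.11.

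**Figure D4:**
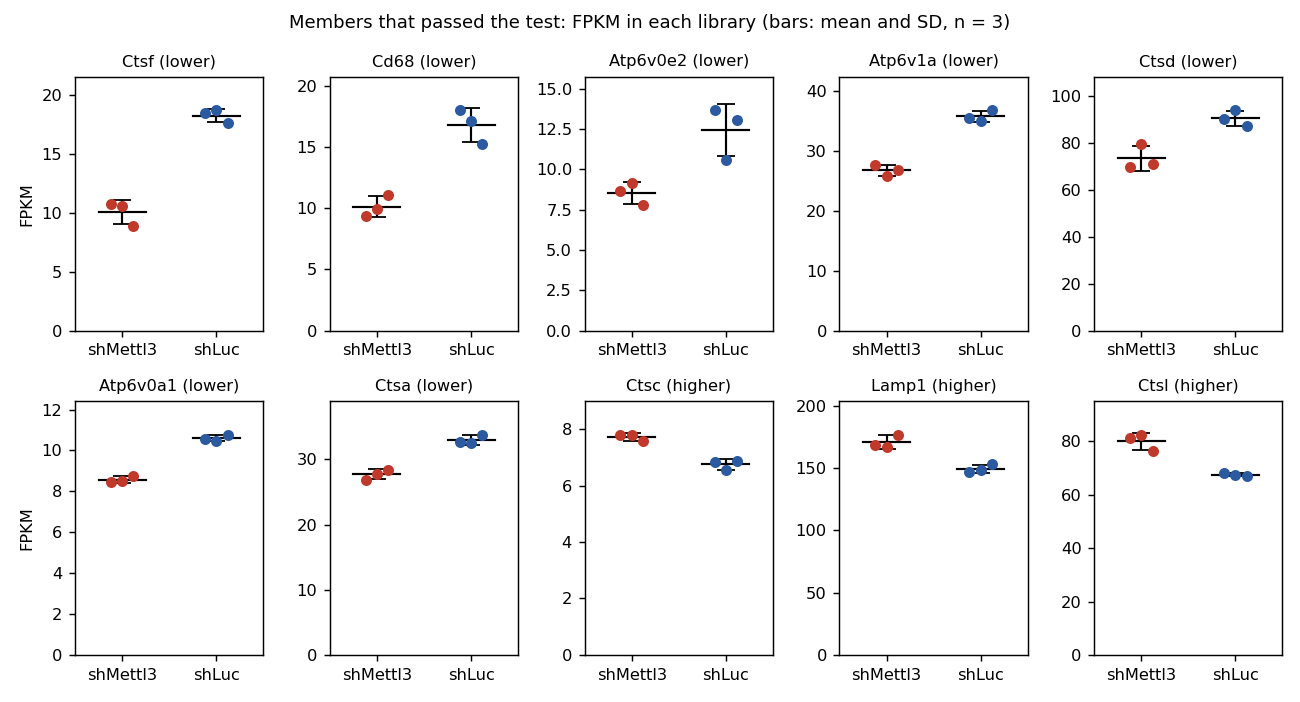
FPKM in each library (vertical axes, from 0) for the 10 genes that passed the test, shMettl3_dox in red on the left and shLuc_dox in blue on the right, with mean and SD of 3 libraries. No group pair overlaps: Ctsf sits at 8.89 to 10.8 in shMettl3_dox and 17.6 to 18.7 in shLuc_dox, and Lamp1 at 167 to 177 in shMettl3_dox and 147 to 153 in shLuc_dox.

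Of the 9 membrane and regulator genes, 1 fell and 1 rose, against 13.5% and 14.6% of all tested genes. Cd68, a glycosylated LAMP-family protein best known from macrophages, was at 9.40, 9.96 and 11.1 FPKM in shMettl3_dox and at 18.01, 17.1 and 15.3 FPKM in shLuc_dox. The groups were far apart, and replicate 3 of each lay nearest to the other group. Means were 10.1 ± 0.838 FPKM in shMettl3_dox and 16.8 ± 1.40 FPKM in shLuc_dox (SD, n = 3 each), a ratio of 0.603 and a log2 change of -0.68 (SE 0.0784, adjusted p = 0.00155, limma; up to 0.010 with 1 library left out). Of 15 macrophage markers, 14 lay under 1 FPKM, with Tyrobp listed at 0 in every library and Adgre1 and Ptprc at 0.00255 and 0.00280 FPKM on average. The exception, Cd14, averaged 5.78 FPKM in shMettl3_dox and 8.19 FPKM in shLuc_dox (log2 change -0.43, adjusted p = 0.0227, limma; 0.0525 to 0.0783 without replicate 1 or 2 of shLuc_dox or replicate 2 or 3 of shMettl3_dox), and the 15 summed to 6.05 to 6.65 FPKM in shMettl3_dox and 7.20 to 9.29 FPKM in shLuc_dox.

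Lamp1, the most abundant of the 36 transcripts per length, was at 169, 167 and 177 FPKM in shMettl3_dox and at 147, 149 and 153 FPKM in shLuc_dox. All shMettl3_dox libraries were above the shLuc_dox libraries, with a log2 change of 0.19 (SE 0.0414, adjusted p = 0.0152, limma). The call was lost without replicate 1 or replicate 2 of shLuc_dox, at adjusted p of 0.0622 and 0.0620. Cd68 over Lamp1 was 0.0556, 0.0596 and 0.0624 in shMettl3_dox and 0.123, 0.115 and 0.0997 in shLuc_dox. Lamp2 and the tetraspanin Cd63, also major lysosomal membrane proteins, had log2 changes of 0.03 and 0.06 and did not pass the test.

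Scarb2 (LIMP-2), which carries β-glucocerebrosidase to lysosomes, averaged 11.0 ± 0.885 FPKM in shMettl3_dox and 13.3 ± 1.24 FPKM in shLuc_dox, with a log2 change of -0.26 (adjusted p = 0.0564, limma). Npc2, which hands cholesterol to the membrane protein NPC1, averaged 36.2 ± 2.21 FPKM in shMettl3_dox and 41.0 ± 1.78 FPKM in shLuc_dox, with a log2 change of -0.18 (adjusted p = 0.0582, limma). Both are in the authors' deposited table, at adjusted p of 0.00955 and 0.0164, and both were called by edgeR on recovered reads (0.00945 and 0.0175). Without replicate 1 of shLuc_dox or replicate 3 of shMettl3_dox Scarb2 passed limma's test (0.0378 and 0.0339), and without replicate 2 of shMettl3_dox Npc2 did (0.0478). With such a library left out, 2 genes of the membrane and regulator group fell. Mcoln1, the calcium channel of lysosomes, was at 6.07 ± 0.326 FPKM in shMettl3_dox and 6.85 ± 0.369 FPKM in shLuc_dox (log2 change -0.15, adjusted p = 0.111). Npc1 had a log2 change of -0.02. Tfeb, the transcription factor of the set, was at 1.89, 1.39 and 1.44 FPKM in shMettl3_dox and 1.83, 1.37 and 1.61 FPKM in shLuc_dox, which overlapped throughout (log2 change -0.02, adjusted p = 0.933).

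The 17 genes under 1 FPKM were not tested. Listed at 0 in every library were 10 of them: Atp6v0d2, Atp6v1g3, Atp6v1e2, Atp6v0c-ps1, Atp6ap1l, Ctsg, Ctsj, Ctsm, Ctsq and Ctsr. The other 7 were Atp6v1b1, Atp6v1c2, Atp6v1g2, Atp6v0a4, Ctse, Ctss and Ctsw. The highest of these was the neuronal isoform gene Atp6v1g2, at 0.671 FPKM in shMettl3_dox and 0.682 FPKM in shLuc_dox, and the lowest gene above the minimum was Ctsh at 1.18 FPKM. For the kidney and osteoclast isoforms Atp6v1b1, Atp6v0a4 and Atp6v0d2 and the immune protease Ctss, at most 9 reads were recovered in any library.

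Since METTL3 methylates adenosines in short motifs of which GGACT is a well-known form, the messenger RNAs were searched for these letters on the sense strand. The windows below are the GGACT match nearest to the stop codon in each gene that fell, 25 bases from the GENCODE M21 transcript with the longest coding sequence, with the motif in capitals.
Ctsf, coding sequence: ctgaaccgggGGACTctgctctccc
Cd68, coding sequence: cagtctacctGGACTacatggcggt
Atp6v0e2, 3′ UTR: gcagaaggcaGGACTcagcccagta
Atp6v1a, 3′ UTR: actgtaaacaGGACTactgcatgta
Ctsd, coding sequence: tctatccgtcGGACTatgacggagg
Atp6v0a1, coding sequence: ttctacactgGGACTggcttcaagt
Ctsa, coding sequence: cctggctagtGGACTacggggagag
Ctsf held 6 matches in 1980 bases, or 3.03 per kilobase. The other fallen genes held 1 to 4. Positions were counted from the last base of the stop codon, negative before it. The windows' matches began at -517 in Ctsf, -351 in Cd68, 162 in Atp6v0e2 and 331 in Atp6v1a. In Ctsd, Atp6v0a1 and Ctsa they began at -1132, -64 and -159, so several lay far from the stop codon. Nearest matches of the risen Ctsl and Ctsc began at 17 and -687. The nearest of the 36 genes was in Scarb2, which did not pass, at 3. The transcripts used for Cd68 and Atp6v0a1 have only 0 and 19 bases of 3′ UTR. Longer 3′ UTRs of other transcripts were not searched, so counts and regions hold for the chosen transcripts only. Over the 36 genes the median was 1.04 per kilobase, and it was 1.04 over 10653 tested protein-coding genes. A match was present in 28 of the 36, or 77.8%, against 91.5% of tested protein-coding genes. The median messenger RNA length was 2156 bases for the 36 and 2989 bases for those genes. All 7 fallen genes held a match, as did 2 of the 3 risen genes, Ctsl and Ctsc, while Lamp1 held none. Methylation itself was not measured in these libraries.

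Other lysosomal genes, taken from lists made for this comparison, moved in both directions. Among all tested genes, 13.5% fell and 14.6% rose. Of 40 tested soluble hydrolases and their activators, 4 fell and 10 rose, with a median log2 change of 0.03. Man2b1, lysosomal α-mannosidase, was at 12.2, 12.6 and 12.6 FPKM in shMettl3_dox and 24.98, 24.7 and 23.7 FPKM in shLuc_dox (log2 change -0.92, adjusted p = 6.08e-05, limma). Hyal1, a hyaluronidase, averaged 1.92 ± 0.256 FPKM in shMettl3_dox and 7.44 ± 0.609 FPKM in shLuc_dox (log2 change -1.54, adjusted p = 0.000143, limma). Both fell further than any of the 36 on this scale. Gaa, acid α-glucosidase, and Glb1, lysosomal β-galactosidase, rose by log2 changes of 0.35 and 0.47 (adjusted p = 0.00116 and 0.00171, limma). All 4 calls held with any 1 library left out.

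Of 30 other lysosomal membrane proteins and transporters, 4 fell and 4 rose, with a median log2 change of -0.03; the smallest p were those of Laptm4b (-0.28), Litaf (0.20), the iron transporter Slc11a2 (0.37) and Abcd4 (-0.36). Of 13 genes of mannose 6-phosphate tagging and sorting, 1 fell, the receptor Igf2r (-0.21), and 3 rose, among them Gnptab and Nagpa (0.33 and 0.31). Of 11 genes that assemble or regulate the V-ATPase, 2 fell and 0 rose with limma at an adjusted p under 0.05. They were Tldc1 (-0.37) and Dmxl2 (-0.30, part of the complex that reassembles V1 with V0). At an unadjusted p under 0.05, 3 fell and 0 rose (18.7% and 21.4% of all tested genes). The counts were also 3 and 0 with edgeR (16.3% and 16.9%) and with DESeq2 (16.5% and 15.6%). Of 12 genes of the Ragulator, Rag GTPase and folliculin group, which places mTORC1 on lysosomes, 2 fell (Fnip1 at -0.19 and Flcn at -0.25) and 2 rose (Rraga at 0.28 and Rragb at 0.34). These values are log2 changes from limma. Laptm4b, Igf2r and Rraga kept their calls without any 1 library, while Litaf lost its call without replicate 2 of shLuc_dox or replicate 1 of shMettl3_dox (adjusted p = 0.0561 and 0.0548) and the other 9 genes named with these lists lost theirs without replicate 1 of shLuc_dox (adjusted p 0.0649 to 0.0966), and each of them also without at least 1 other library.

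Of the 2 tested relatives of Tfeb, 0 passed in either direction, with limma at an adjusted or unadjusted p under 0.05, edgeR or DESeq2. Of 3 tested cystatins, which inhibit cysteine cathepsins, Cst6 fell, at 0.785 ± 0.129 FPKM in shMettl3_dox and 1.45 ± 0.0810 FPKM in shLuc_dox (log2 change -0.46, adjusted p = 0.0262, limma), a call lost without replicate 1, 2 or 3 of shLuc_dox or replicate 2 or 3 of shMettl3_dox (adjusted p up to 0.0879).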

How the data were processed

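RNA-seq of total RNA from 6 libraries, 3 shMettl3_dox and 3 shLuc_dox, was used. Tools named in the submitters' processing notes, with no role, are STAR, fastp, DESeq2 and featureCounts 1.5.3, with mm10 as the build. No strand setting is stated there. The authors deposited FPKM for 54532 genes. A second deposited table lists 1960 genes lower in shMettl3_dox, where the deposited signal of each library is its read count divided by 1 size factor. It also holds log2 fold changes by the authors, with p-values and adjusted p-values whose test the deposited header leaves unnamed.

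The main test was limma 3.58.1 (R 4.3.3, eBayes with trend, two-sided, Benjamini-Hochberg over all tested genes, threshold 0.05) on log2(FPKM + 1) for the 12098 genes that averaged 1 FPKM or more. Log2 changes are on that scale, which understates changes of low genes. Whole reads, within 0.01 of a read, were recovered for 99.0% of expressed genes: from the normalized read counts for genes in the second table (Ctsf among them), otherwise from FPKM and the GENCODE M21 exon length or, for 491 tested genes, another whole-number length; edgeR 4.0.16 and DESeq2 1.42.0 on these reads were alternatives. The limma script was tested on counts simulated from the means and depths of these libraries. It recovered 10% of 50 genes changed 1.2-fold, 66% of 50 changed 1.5-fold and 94% of 50 changed 2-fold. There were 7 false calls over 12098 genes. A gene that did not pass may therefore still differ by a small fold. Far fewer genes were changed in the simulation than passed in the data, so the adjusted threshold was stricter there. The recovery rates need not hold for these libraries. Sums and figures were made with pandas 2.3.3, numpy 2.4.6 and matplotlib 3.10.9 in Python 3.11.15.

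The genes, the lists and the tests were chosen with earlier results of these data known. All 36 genes at or above 1 FPKM are described; those that passed have every library's value; of each other list, up to 4 passing genes with the smallest unadjusted p are named, except 1 that is not reported here. Coordinates are GRCm38, the assembly of mm10, counted from 1.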

Additional observations from a re-analysis of the deposited data

How the results depend on the processing

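Of 19 alternatives, 6 left out 1 library each. Over them the 10 genes that passed gave 190 values, of which 170 kept direction and call, 20 kept direction and lost the call, and 0 reversed. Of the 20, 8 came from requiring a fold above 1.2. Beside the libraries named with the results, Ctsc was also lost without a filter on low values (adjusted p = 0.0579), with protein-coding scaling (0.0745), with the replicate block (0.0647) and with DESeq2 (0.0815), and Lamp1 with quantile normalization (0.0747). The 26 others gave 489 values, of which 433 stayed as they were, 41 passed the threshold and 15 reversed. Among the reversed (log2 changes), Tfeb was at 0.0662 with quantile normalization and 0.0712 with array weights. Npc1 was at 0.00903 and 0.000720 with the same settings, and Lamp2 at -0.0120 with protein-coding scaling. With 1 library left out, Atp6ap2 lay between -0.12 and 0.0434, Atp6v1c1 between -0.0582 and 0.0135, and Atp6v1f between -0.0553 and 0.00797. In the same fits Ctsk lay between -0.0487 and 0.30, Npc1 between -0.0674 and 0.0135, and Tfeb between -0.10 and 0.0441. The cause of these moves was not tested.

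Among all tested genes, 1060 to 1646 fell and 1013 to 1854 rose with 1 library left out, and 305 fell and 117 rose when that fold was required (limma treat). Among the 36 genes, 13 fell with protein-coding scaling, 11 with array weights, 11 with edgeR and 2 with treat, which were Ctsf and Cd68. Risen genes numbered 6 with array weights, 5 with edgeR, 0 with treat and 1 to 6 with 1 library left out. With array weights 2043 of all tested genes fell and 2368 rose, and with edgeR 1976 and 2047. V-ATPase genes that fell numbered 7 with protein-coding scaling, 5 with edgeR and 0 with treat, and 1 rose with array weights, edgeR or DESeq2 and 0 to 1 with 1 library left out. For cathepsins, 1 fell with treat, while 1 rose without a filter, with protein-coding scaling or with DESeq2, 4 with array weights, 0 with treat and 1 to 4 with 1 library left out. Membrane and regulator genes that fell numbered 3 with a minimum of 5 FPKM, protein-coding or median-ratio scaling, edgeR or DESeq2, 2 with quantile normalization or the replicate block, 4 with array weights and 1 to 2 with 1 library left out, and 0 rose with quantile normalization or treat and 0 to 1 with 1 library left out. Pooling Atp6v0c with its pseudogene was chosen after seeing the data.

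Same-numbered libraries of the groups correlated at 0.0340, -0.00680 and 0.0631, and not every library correlated best with its own number, so the numbers are not taken as a pairing. With the replicate number as a block, 1525 genes fell and 1676 rose, and 9 and 3 of the 36. With 3 libraries a group, low genes such as Ctsh, Ctso, Ctsk and Tfeb had standard errors of 0.0915 to 0.161, so small differences in them were not detectable.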
